A study of Bos indicus with 11 samples.

Results

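GRB14 and a small group of proteins that bind the insulin receptor or relay its signal were examined in endometrial biopsies of cows that did or did not become pregnant. Genes were taken by symbol from the deposited table, and 5 of the 7 symbols listed had a row among the 24616 rows: GRB14, GRB10, GRB7, INSR and IRS1. IRS2 and SH2B2 had no row under their symbol and were not analysed here. All 5 genes with a row passed the filter on low values, a mean normalized count of at least 5. The group was chosen by the normalized counts of GRB14, already known to be higher in pregnant than in non-pregnant cows, so the comparison of pregnant and non-pregnant cows is given for these 5 genes as a description, with no test.

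The insulin receptor, INSR, is a tyrosine kinase at the cell surface that phosphorylates itself and docking proteins such as IRS1, which in turn engage the PI3 kinase and AKT branch and the RAS and MAP kinase branch. GRB7, GRB10 and GRB14 form one family of adaptors without enzyme activity, which carry an SH2 domain and dock on activated receptor kinases. GRB14 and GRB10 bind the active insulin receptor and restrain its kinase, whereas GRB7 is best known from its binding to ERBB2 and focal adhesion kinase. Insulin and the insulin-like growth factors act on growth and nutrient use in the uterus.

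The samples were healthy multiparous Nelore cows (Bos indicus). All of them had estrus synchronized with a prostaglandin analogue, were inseminated at estrus and were biopsied on day 6 in the uterine horn opposite the corpus luteum. They were sorted afterwards by the pregnancy diagnosis of day 30 into 6 pregnant (P) and 5 non-pregnant (NP) cows, and the study chose cows with similar plasma progesterone. Each cow gave 1 biopsy and 1 library, with no treatment that separated the groups, and 1 further NP library was left out by the study because of sequencing problems. Cow P617 is labelled pregnant, but a supplementary table of the study names it as non-pregnant; it was kept as P.

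The reads counted on genes came to 9290949 to 13508711 per P cow and 9783673 to 13569085 per NP cow. The labelled tissue was checked with marker genes. All 12 epithelium markers were detected in every cow, but their summed level ranged from 2612 to 25452 normalized counts in P cows and from 10670 to 16514 in NP cows, and EPCAM, an adhesion protein of epithelial cells, had 269 normalized counts in cow P617 against 2110 or more in the other cows. The other epithelium markers were also lowest in cow P617, except KRT7. It had 433 normalized counts in cow P617 and more only in cow P1631, at 839. The 9 rows of smooth muscle markers, led by the row shared by ACTG2 and ACTA2, summed to 85661 to 671570 in P cows and 42698 to 287789 in NP cows. Their score, the mean of log2(normalized count + 1), was highest in cows P617 (15.50), P1541 (15.12) and NP638 (14.42). Stroma markers, led by COL3A1, summed to 129960 to 374972 in P cows and 267473 to 366079 in NP cows. Endothelium markers, led by KDR, summed to 4642 to 13433 and 8432 to 15124. Immune markers, led by LCP1, summed to 792 to 1913 and 1228 to 2236, and of these the B cell marker MS4A1 was at 0 in some cows. In bulk tissue, fewer cells of a type and less RNA per cell cannot be told apart.

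GRB14 (ENSBTAG00000019291), the adaptor that restrains the insulin receptor kinase, was higher in P cows. Its lowest P cow had 293 normalized counts, the median was 413 and the highest, cow P617, had 877. The NP cows had 134, 189, 190, 271 and 278 normalized counts. With the cows grouped as labelled, all 6 P cows therefore lay above all 5 NP cows, while cow P617 stood well above the rest of its group. The mean was 466 ± 216 (SD, n = 6) in P and 212 ± 61.2 (SD, n = 5) in NP, which is 2.20 times as high in P cows. On the log2(normalized count + 1) scale the difference, NP over P, was -1.08 with a standard error of 0.289. Of all 15081 genes tested, 0.239% had every P cow above every NP cow, and nothing is read from this share because this contrast chose the gene.

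The space between the groups was narrow. The lowest P cow, P904, had 306 reads of GRB14 and the highest NP cow, NP2810, had 273, a gap of 14.9 normalized counts, and the counting error of each value alone was 16.8. Without cow P617 the mean in P cows was 384 ± 87.3 (SD, n = 5) and the log2 difference was -0.87. Without cows P617, P1541 and NP638, the cows with the highest smooth muscle scores, the P cows had 391 ± 99.4 (SD, n = 4) and the NP cows 218 ± 69.2 (SD, n = 4), with a log2 difference of -0.87. With the smooth muscle score as a covariate the difference was -0.85, and with the epithelium score it was -1.03. Taking cow P617 as NP, as the supplementary table names it, lowered the size of the difference, to -0.53. The groups then overlapped, because this cow had the highest GRB14 value of all cows.

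**Figure D1:**
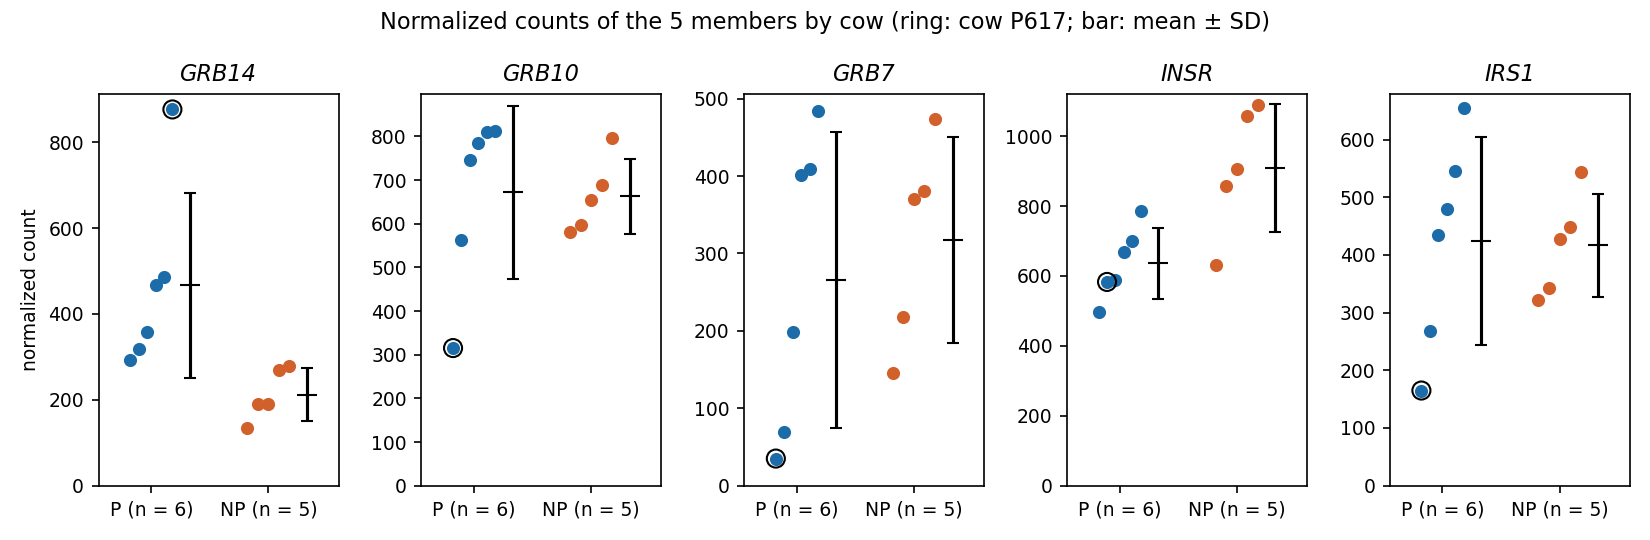
Normalized counts (y axis, from 0) of GRB14, GRB10, GRB7, INSR and IRS1 in 6 P and 5 NP cows; each point is a cow, the ring marks cow P617 and the bar gives the mean ± SD of the group. GRB14 lies between 293 and 877 in P cows and between 134 and 278 in NP cows, while cow P617 is the lowest cow for GRB10, GRB7 and IRS1.

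INSR (ENSBTAG00000012687), the receptor itself, was higher in NP cows by a smaller margin. The P cows ranged from 496 to 786 normalized counts with a median of 628. The NP cows had 630.0, 858, 907, 1059 and 1088 normalized counts. Thus 4 of the 5 NP cows lay above every P cow, and cow NP2810 fell within the range of the P cows. The mean was 636 ± 102 (SD, n = 6) in P and 908 ± 184 (SD, n = 5) in NP, and the log2 difference, NP over P, was 0.50 with a standard error of 0.161. Left-out cows and the other settings gave differences between 0.38 and 0.63.

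GRB10 (ENSBTAG00000017086), the nearest relative of GRB14 in its effect on the receptor, had almost the same mean in both groups. The P cows ranged from 315 to 813 normalized counts with a median of 766, and the NP cows had 582, 597, 654, 688 and 796. The groups overlapped, with the P cows P617 and P1541 below every NP cow and 2 P cows above every NP cow. The log2 difference was 0.04 with a standard error of 0.234. Without cows P617 and P1541 the P cows had 789 ± 30.5 (SD, n = 4) and the NP cows 663 ± 85.8 (SD, n = 5).

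GRB7 (ENSBTAG00000017366), the family member tied to ERBB2 and cell migration, varied most from cow to cow. The P cows ranged from 35.0 to 484 normalized counts with a median of 299.6, and the NP cows had 146, 218, 370.0, 381 and 473. The groups overlapped over almost their whole range, and cows P617 and P1541 were again lowest. The standard deviation in P cows was 71.8% of their mean, against 46.2% for GRB14 and 16.1% for INSR. The log2 difference of 0.66 was about the size of its standard error, 0.670. It was 0.19 without cow P617, 0.38 without cow P1541 and -0.28 without both, and it was below 0 in 4 of the 25 alternatives. DESeq2 and edgeR on the recovered reads gave 0.26 and 0.27.

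IRS1 (ENSBTAG00000021308), the docking protein that carries the receptor's signal to PI3 kinase, had 425 ± 180.5 normalized counts (SD, n = 6) in P and 417 ± 89.2 (SD, n = 5) in NP. The P cows ranged from 165 to 655 with a median of 458, and the NP cows had 322, 342, 427, 449 and 543. The NP cows fell inside the range of the P cows, and cows P617 and P1541 were below all others. The log2 difference was 0.08 with a standard error of 0.322. Its sign depended on the setting, being above 0 in 15 and below 0 in 10 of the 25 alternatives, and that of GRB10 was above 0 in 16 and below 0 in 9. As background to these differences, limma called 0% of the 15081 genes at an adjusted p-value of 0.1 and had 1182 below 0.05 before adjustment. On the recovered reads edgeR and limma-voom called 0 genes, with 1151 and 1173 below 0.05 before adjustment, and DESeq2 called 201.

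The ratio of GRB14 to INSR was formed within each cow, where the size factor of the library cancels. Transcript lengths were not used, so the ratio can be compared between cows but does not say which of both genes was more abundant per molecule. In P cows it ranged from 0.373 in cow P904 to above 1 in cow P617, whose log2 ratio was 0.59. In NP cows it ranged from 0.126 in cow NP238 to 0.442 in cow NP2810. In 5 of the 6 P cows the ratio lay above every NP cow, and cow P904 lay inside the NP range. The mean log2 ratio was -0.54 ± 0.66 (SD, n = 6) in P and -2.12 ± 0.71 (SD, n = 5) in NP, a difference, NP over P, of -1.58, to which the higher GRB14 and the lower INSR of P cows both add. The ratio of GRB14 to GRB10 ranged from 0.373 to 2.78 in P cows and from 0.194 to 0.414 in NP cows, again with 5 of the 6 P cows above every NP cow. For GRB14 to GRB7 only 2 of the 6 P cows, P617 and P1541, lay above every NP cow. Each ratio has GRB14 as its numerator, the gene that this contrast chose. How far the ratios separate the groups is therefore a description, and nothing more is read from it.

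**Figure D2:**
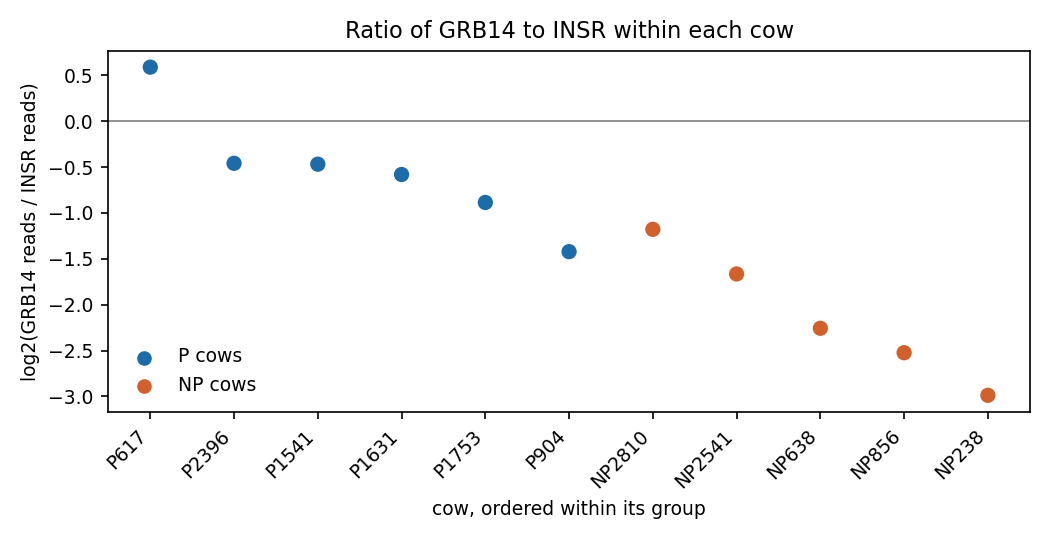
Log2 ratio of GRB14 reads to INSR reads (y axis) in each of the 6 P and 5 NP cows (x axis, ordered by value within the group). Cow P617 alone is above 0, and cow P904, at -1.42, falls below cow NP2810, at -1.18.

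The cow to cow variation that the groups do not account for was examined next. Values were centred on the group means, which removes the contrast that chose the members, and compared with the scores of the epithelium and smooth muscle markers in 10 correlations, each called at an adjusted p-value of 0.05. For the epithelium score, cow P617 lay apart from the others, so 10 cows were used. GRB10 went up with the epithelium score (r = 0.78, rho = 0.82, two-sided exact permutation within groups, p = 0.00417 for each, adjusted p = 0.0219 for r and 0.0417 for rho). Without cows P1631 and P1541, the farthest from the median score, r was 0.60. GRB10 went down with the smooth muscle score over the 11 cows (r = -0.72, rho = -0.71, exact permutation p = 0.004375 and 0.0171, adjusted p = 0.0219 and 0.0856, so that r passed and rho did not), with r = -0.60 without cows P617 and P1541. IRS1 also went down with the smooth muscle score (r = -0.76, rho = -0.64, exact permutation p = 0.00696 and 0.0453, adjusted p = 0.0232 and 0.146, again with rho not passing), with r = -0.59 without the same cows.

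For GRB7 and the smooth muscle score r was -0.68 and rho -0.62 (exact permutation p = 0.0274 and 0.0584, adjusted p = 0.0686 and 0.146), and r was -0.40 without cows P617 and P1541. GRB14 passed with neither score. Its r was 0.33 with the epithelium score (rho = 0.33, exact permutation p = 0.340 and 0.329, adjusted p = 0.340 and 0.411). With the smooth muscle score r was 0.40 (rho = 0.26, exact permutation p = 0.255 and 0.460, adjusted p = 0.340 and 0.511), and 0.22 without cows P617 and P1541. INSR likewise passed with neither score, with r = 0.34 and -0.37 (rho = 0.02 and -0.45, adjusted p = 0.340 for both r by exact permutation). The sign of the difference changed for 3 members when the smooth muscle score was a covariate. Without the covariate, each of these differences was smaller than its standard error. With it, the log2 difference, NP over P, went from 0.66 to -0.30 for GRB7, from 0.08 to -0.42 for IRS1 and from 0.04 to -0.29 for GRB10. INSR kept its direction, at 0.39, as did GRB14. With the epithelium score as the covariate the differences were 0.48 for GRB7, -0.004 for IRS1, -0.027 for GRB10 and 0.49 for INSR. The signs of IRS1 and GRB10 thus changed with this covariate too.

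**Figure D3:**
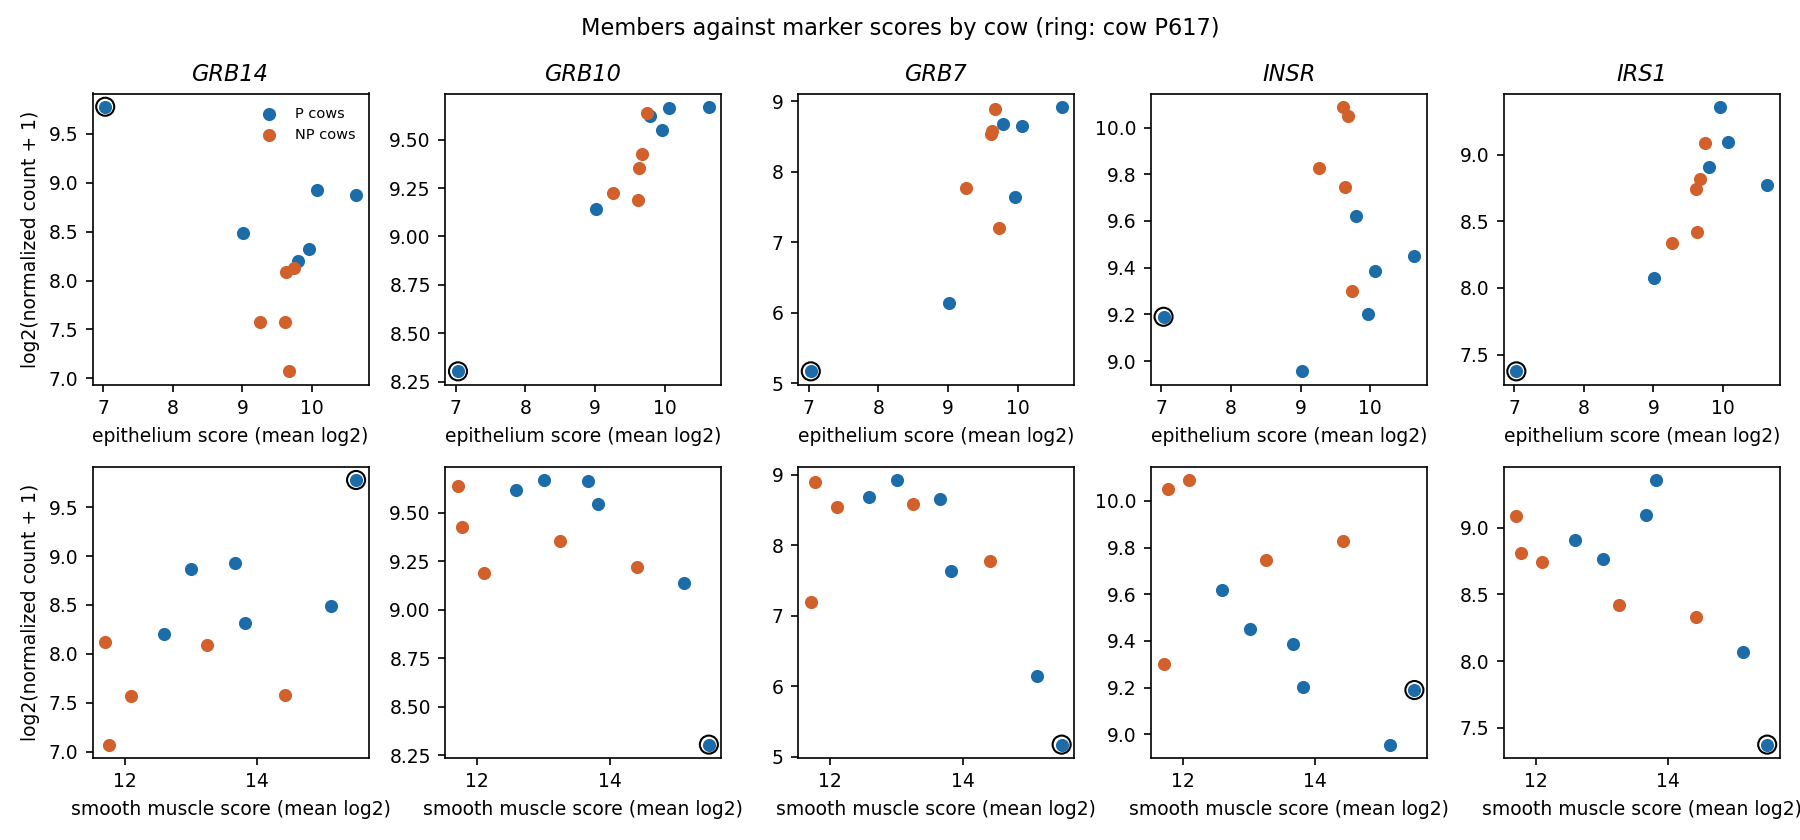
Log2(normalized count + 1) of each member (y axes) against the epithelium score (top row) and the smooth muscle score (bottom row), the mean log2(normalized count + 1) of the markers, in each of the 11 cows; the ring marks cow P617. GRB10, GRB7 and IRS1 are lowest in cow P617, which has the lowest epithelium and the highest smooth muscle score, and GRB14 is highest there.

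Among themselves, the members fell into no single pattern. Over the 10 pairs, compared on the centred values in 11 cows at the same threshold, r passed for 2 pairs and rho for 0. GRB10 and IRS1 varied together (r = 0.90, rho = 0.82, exact permutation p = 0.00568 and 0.0165, adjusted p = 0.0376 and 0.0701), with r = 0.72 without cows P617 and P1541. GRB7 varied with INSR (r = 0.70, rho = 0.78, exact permutation p = 0.00752 and 0.00747, adjusted p = 0.0376 and 0.0701), and r was 0.71 without cows NP856 and NP238. GRB10 and GRB7 had r = 0.78 (adjusted p = 0.0775 by exact permutation), which was 0.38 without cows P617 and P1541. GRB14 had r between -0.54 and -0.43 with each of the other 4 members (adjusted p from 0.223 to 0.236 by exact permutation), and between -0.33 and 0.06 once the 2 cows farthest from the median were left out.

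The genes whose pattern was most like that of GRB14 were sought among 10739 named genes with a mean of at least 50, by Pearson's r over the 11 cows on the centred values. The likeness is a description over few cows. CLIC1, a chloride intracellular channel protein, ranked first with r = 0.96, and ranked second with r = 0.93 without cow P617. It had 3364 normalized counts on average, and its own log2 difference, NP over P, was -0.19. ZNF777, FAM134A, USP27X, YPEL1, MFSD10, ANAPC15 and NFKBIE followed, with r from 0.87 to 0.91, and from 0.73 to 0.82 without cow P617. Their ranks depended on this cow, and without it they ranked between 46 (ZNF777) and 160 (ANAPC15). The most opposite pattern was that of CCNYL1, a cyclin Y-like protein, with r = -0.95 and -0.91 without cow P617. It was followed by SULF2, an enzyme that trims heparan sulfate (r = -0.92), and SYNGR1, a synaptic vesicle protein (r = -0.91). In all, 68 genes had r above 0.8 and 67 below -0.8.

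**Figure D4:**
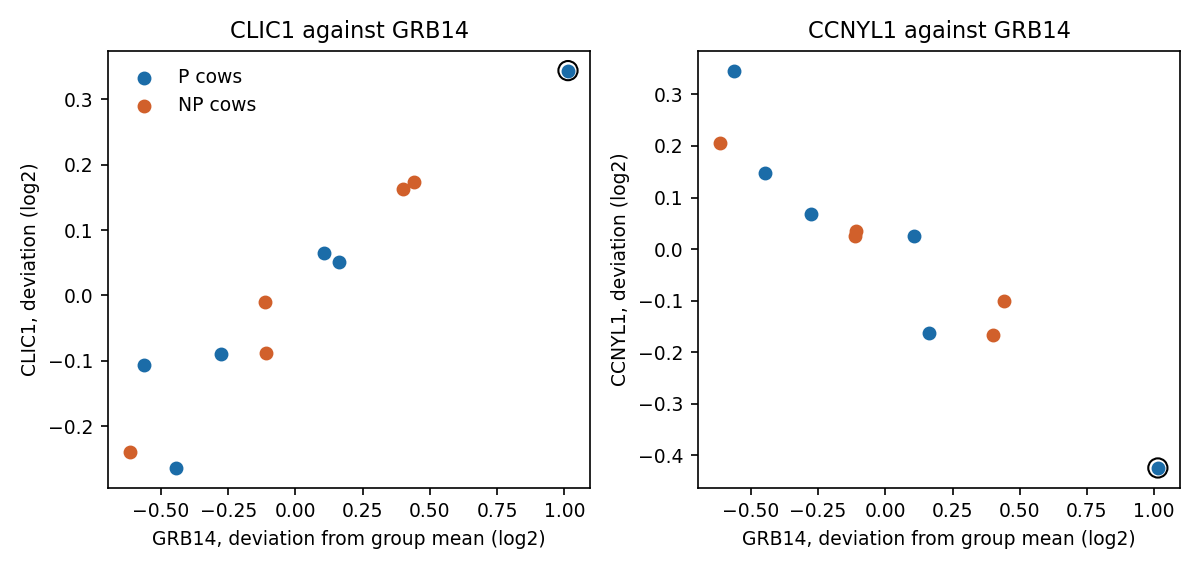
Deviation of log2(normalized count + 1) from the group mean for CLIC1 and CCNYL1 (y axes) against GRB14 (x axes) in 6 P and 5 NP cows; the ring marks cow P617. CLIC1 goes up with GRB14 (r = 0.96) over a narrower range, and CCNYL1 goes down with it (r = -0.95).

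The other genes of the pathway were compared from 7 lists of 112 genes, of which 100 were tested. The lists were drawn up from general knowledge, but with earlier results of these data known, so the counts of genes are a description. Limma called 0 of the 100 genes at 0.1, PDK4 having the smallest adjusted p-value, 0.228. At an unadjusted p-value under 0.05 there were 8 genes higher in NP cows, where 5.49% of all genes tested were, and 4 higher in P cows, where 2.35% were. DESeq2 on the recovered reads called 4 of the 100 genes, SESN3, APBB1IP, IGF2 and PDK4, where it called 1.33% of all genes, and edgeR and limma-voom called 0 of them, with 13 and 12 genes below 0.05 before adjustment. The median log2 difference of the 100 genes was 0.01, beside 0.00182 over all genes tested. The NP cows were all above the P cows for 1 of the 100 genes, PDK4, and for 0.855% of all genes tested.

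Among 5 ligands and related receptors tested, 4 had a higher mean log2 value in NP cows, as 50.2% of all genes tested did. IGF2, a growth factor that binds the IGF1 receptor and one isoform of the insulin receptor, had 3776 ± 1676 normalized counts (SD, n = 6) in P, from 1911 to 6413. The NP cows had 6199, 8691, 9151, 10270 and 10344 normalized counts, so that only cow NP638 fell within the range of the P cows, where cow P904 was highest. Its log2 difference was 1.34 with a standard error of 0.297 (adjusted p = 0.264 in limma). INSRR, the insulin receptor-related receptor, was scarce, with 8.56 ± 4.85 normalized counts (SD, n = 6) in P and 21.8 ± 6.99 (SD, n = 5) in NP, a log2 difference of 1.37 (adjusted p = 0.444 in limma).

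Close to the receptor, 14 further adaptors and substrates had a median log2 difference of -0.01, and in limma 0 of them were below 0.05 before adjustment. The smallest p-value was that of DOK5, a docking protein, with 73.0 ± 23.3 normalized counts (SD, n = 6) in P and 46.8 ± 15.6 (SD, n = 5) in NP (log2 difference -0.61, adjusted p = 0.676). The 14 inhibitors, phosphatases and SOCS proteins among them, had a median of 0.20, and 13 of them had a higher mean log2 value in NP cows, as 50.2% of all genes tested did. By mean normalized count 10 of the 14 were higher in NP cows, beside 43.8% of all genes tested, and SOCS1, SOCS3 and SOCS6, inhibitors of cytokine and insulin signalling, turned between the scales, with log2 differences of 0.01, 0.14 and 0.0024. Of the 14, 1 was below 0.05 before adjustment, PTPRE, a receptor-type tyrosine phosphatase, with 44.9 ± 14.7 normalized counts (SD, n = 6) in P and 79.5 ± 22.7 (SD, n = 5) in NP (log2 difference 0.82, adjusted p = 0.459 in limma).

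In the PI3 kinase and AKT branch 12 of 27 genes had a higher mean log2 value in NP cows and 8 a higher mean normalized count, with a median difference of -0.07. Over all genes tested these shares were 50.2% and 43.8%. PIK3R1, the regulatory subunit that docks on IRS proteins, had 1077 ± 328 normalized counts (SD, n = 6) in P and 1667 ± 427 (SD, n = 5) in NP (log2 difference 0.65, adjusted p = 0.496 in limma). TBC1D1, a Rab GTPase regulator phosphorylated by AKT, had 2209 ± 926 (SD, n = 6) in P and 1377 ± 346 (SD, n = 5) in NP (log2 difference -0.62, adjusted p = 0.614 in limma), and its highest values, 3512 and 3232 normalized counts, were those of cows P617 and P1541. The RAS and MAP kinase branch had a median of -0.05 over 13 genes, of which limma put 0 below 0.05 before adjustment.

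**Figure D5:**
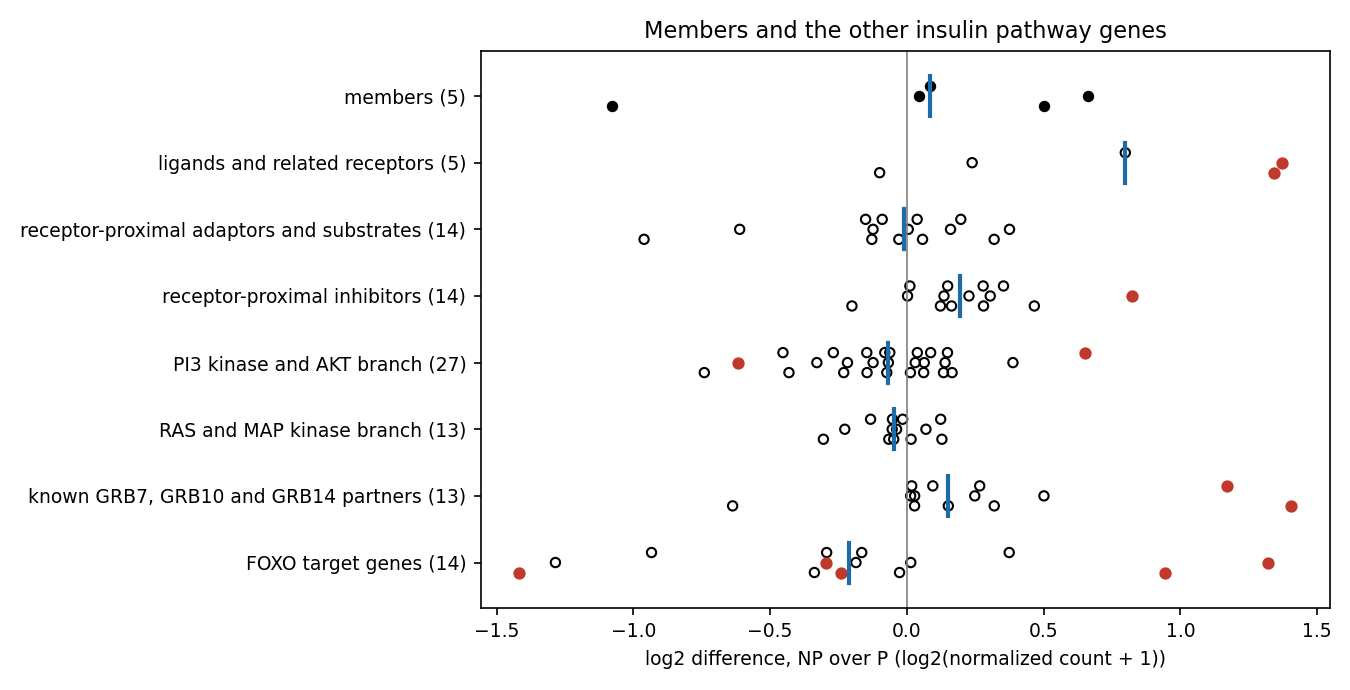
Log2 difference, NP over P (x axis), of the 5 members and of the genes of 7 insulin pathway lists, with the number of genes shown beside each name; each point is a gene, red points are below 0.05 in limma before adjustment, black points are the members, which were not tested, and the vertical bars are medians. GRB14 lies at -1.08, and the medians of the PI3 kinase and RAS branches lie at -0.07 and -0.05.

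Of 13 known binding partners of GRB7, GRB10 and GRB14 or relatives in sequence that were tested, 12 had a higher mean log2 value in NP cows, with a median of 0.15, and 9 had a higher mean normalized count. Among all genes tested these shares were 50.2% by mean log2 value and 43.8% by mean normalized count. The receptors KIT and RET and the kinase PRKCZ turned between the scales, with mean normalized counts of 770.0, 144 and 362 in P cows and 742, 126 and 328 in NP cows. TEK, the angiopoietin receptor to which GRB14 binds, had 601 ± 290 normalized counts (SD, n = 6) in P and 1246 ± 322 (SD, n = 5) in NP (log2 difference 1.17, adjusted p = 0.364 in limma). TEK is also one of the 10 endothelium markers, whose score was 9.08 ± 0.46 (SD, n = 6) in P and 9.86 ± 0.33 (SD, n = 5) in NP, and the part of endothelial cells in its difference was not tested. APBB1IP, a relative of the GRB7 family that is abundant in leukocytes, had 77.4 ± 34.6 (SD, n = 6) in P and 201 ± 67.6 (SD, n = 5) in NP (log2 difference 1.40, adjusted p = 0.264 in limma). The immune score was 5.83 ± 0.45 (SD, n = 6) in P and 6.50 ± 0.50 (SD, n = 5) in NP, and its part in this difference was not tested either.

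Genes that FOXO transcription factors are known to activate when insulin signalling is low did not share a direction. Of 14 tested, 4 had a higher mean log2 value in NP cows and 10 in P cows, and 3 had a higher mean normalized count in NP cows. PDK4, the kinase that shuts off pyruvate dehydrogenase, had 337 ± 97.9 normalized counts (SD, n = 6) in P, from 259 to 505. Its NP cows had 539.9, 613, 929, 931 and 1265, without overlap (log2 difference 1.32, adjusted p = 0.228 in limma). SESN3, a stress protein that inhibits mTORC1, had 147 ± 57.1 (SD, n = 6) in P and 268 ± 33.3 (SD, n = 5) in NP (log2 difference 0.94, adjusted p = 0.323 in limma). FBXO32, a ubiquitin ligase subunit of muscle, had 696 ± 551 (SD, n = 6) in P and 237 ± 142 (SD, n = 5) in NP (log2 difference -1.42, adjusted p = 0.487 in limma), and catalase, CAT, had 3743 ± 400.0 (SD, n = 6) and 3040 ± 269 (SD, n = 5) (log2 difference -0.30, adjusted p = 0.509 in limma). FBXO32 was highest in cow P617, at 1745 normalized counts.

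The named protein-coding genes next to each member in the RefSeq annotation of the Bos indicus Tharparkar assembly were looked up by symbol, a choice made after the values of the members had been seen. Of 10 such neighbours, 7 were tested, and limma put 0 of them below 0.05 before or 0.1 after adjustment. On one side of GRB14 lies FIGN, which encodes a microtubule-severing protein, with 10.2 to 40.3 normalized counts in P cows and 22.3 to 67.4 in NP cows (log2 difference 0.56, adjusted p = 0.796 in limma). COBLL1, on the other side, had no row under its symbol.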

How the data were processed

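Endometrial RNA of 6 P and 5 NP cows was sequenced as paired-end polyA libraries. Per the study's methods and the submitters' processing notes, reads were mapped with Bowtie2 2.1.0 to the masked UMD3.1 assembly and counted per gene with HTSeq 0.5.4p2; the annotation and the use of strand are not given in the sources used here, so the counts of overlapping genes are uncertain. The authors deposited their values as normalized counts (a signal at or above 0), made by dividing reads by a size factor per cow with DESeq2 1.12.1. Divided by the worth of 1 read, 100% of each cow's values came out whole within 0.01 of a read, and these reads entered the count tests.

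The members, lists and tests were chosen with earlier results of these data known. Limma 3.58.1 (R 4.3.3, eBayes with a trend) was fitted to log2(normalized count + 1) of 15081 genes, those whose mean reached 5, with the Benjamini-Hochberg adjustment at 0.1; differences are NP over P. Alternatives used edgeR 4.0.16, DESeq2 1.42.0 without independent filtering, limma-voom, other scalings, filters, pseudocounts, covariates and sets of cows. Correlations used two-sided exact permutation of cows within groups and an adjusted threshold of 0.05; the pairs of members and the neighbours were added after seeing the data. Besides the members, the text names in each list up to 4 genes with the smallest p-values under 0.05, or the gene with the smallest, the 8 genes most like GRB14 and the 3 least like it, and the top marker of each cell type. One result that this rule gives is not reported here. No p-value is given for the members' own P and NP difference. Genome coordinates are not given, because the RefSeq table is of another assembly. Intervals of counting error cover reads only. A gene with few reads, such as INSRR, carries more counting error than GRB14, which had 132 to 776 reads per cow.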

Additional observations from a re-analysis of the deposited data

Results flagged for a closer look

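For the 5 members and 13 pathway genes that the naming rule gives, each group was searched for a cow far from the others, in 36 groups in all. The search used Dixon's ratio, the gap to the nearest cow over the range of the group, on normalized counts and not on log2 values. Chance alone would flag about 1 in 20 groups if these counts were normally distributed, which was not tested. Cow P617 was flagged among P cows in 2 of the 36 groups. That is close to the share by chance, so nothing more is read from it. GRB14 had 877 normalized counts in this cow, and the next P cow had 486. FBXO32 had 1745 normalized counts in cow P617, and the next P cow had 722. Cow P617 also had the highest smooth muscle score, 15.50, and the lowest epithelium score, 7.03, of the 11 cows; the part of these in the values was not tested.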

How the results depend on the processing

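The difference of GRB14 was below 0 in all 25 alternatives, and between -1.19 and -0.87 with single cows left out. Leaving cows out could not turn its sign, because every cow labelled P lay above every NP cow in the contrast that chose the gene. The difference moved by more than the spread among cows only when cow P617 was taken as NP (-0.53). The 12 pathway genes with an unadjusted p-value under 0.05 became 9 (without cow NP2541) to 18 with single cows left out, 20 without cows P617 and P1541 and 19 without cow NP638 as well, an alternative chosen after seeing the data. For all genes, the 0 calls of limma became 201 with DESeq2, 17 without cows P617 and P1541 and 168 with the epithelium score as a covariate, and 0 to 171 with single cows left out, the 171 being without cow P904; the cause was not tested. DESeq2 gave no adjusted p-value for 100 genes. The correlation of GRB14 with the epithelium score turned to -0.55 with cow P617 included, and that of INSR to -0.026 without centring. At an adjusted p-value of 0.05 for r, GRB7 and IRS1 passed with the epithelium score only with all 11 cows. Their r was 0.85 and 0.86 (adjusted p = 0.0189 and 0.0292 by exact permutation). For rho the adjusted p was 0.0615 and 0.0350 by exact permutation, so that GRB7 did not pass. With the smooth muscle score, GRB7 passed for r but not for rho in both other settings. When the adjustment ran over the correlations of all 11 cows, r was -0.68 as before (adjusted p = 0.0457 for r and 0.0973 for rho by exact permutation). When not centred, r was -0.71 (adjusted p = 0.0464 for r and 0.142 for rho by exact permutation), and -0.13 without cows P617 and P1541. GRB10 and IRS1, when not centred, had r of -0.64 and -0.68 with the smooth muscle score, and -0.10 and -0.19 without the same cows. The scalings moved the median of all genes by less than 0.1. No paired analysis was possible because the cows of both groups are different animals with no shared number. Depth limits the scarce genes, and the gap between the groups in GRB14 was smaller than the counting error of its nearest cows.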
